A study of Mus musculus with 5 samples.

Results

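The genes described here write, erase and read chemical marks on histones. They are 37 genes taken by name from 7 functional groups: 10 histone deacetylases, 5 ING proteins, 7 genes of the H3K4 methyltransferase core, 5 demethylases, 3 genes of Polycomb repressive complex 2 (PRC2), 4 acetyltransferases and 3 further readers of methylated histone H3. A probe set, the group of short probes that together report 1 transcript, counted as a member when the platform annotation gave it 1 of these symbols and no other. This gave 91 of the 45037 probe sets on the array and all 37 genes, out of 18193 genes measured.

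The cells were epithelial tumour cells of the mouse prostate, isolated with beads that the design text spells Epicam, read here as EpCAM, from 5 C57BL/6 mice, 1 array each. The 3 nDKO mice carried floxed alleles that include Smad4, and their labels name Probasin, whose promoter is active in prostate epithelium. The 2 nTKO mice carried the same alleles and floxed Pygo2 in addition, so that Smad4 was targeted in both groups and the comparison is about Pygo2. Ages in weeks were 15.86, 10.71 and 10.71 for mice nDKO 1 to 3, and 31.43 and 16 for nTKO 1 and 2, so age and genotype are partly confounded. Mice without these alleles were not analysed here.

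Histone tails carry small chemical groups that mark active and silent genes. Methylation of lysine 4 of histone H3 (H3K4), placed by SET1 and MLL complexes and removed by KDM1 and KDM5 enzymes, marks active promoters, while PRC2 methylates lysine 27 and is tied to silencing. Acetyltransferases open chromatin by acetylating histones and deacetylases reverse this. Pygo2 reads methylated H3K4 through a PHD finger, a zinc-binding fold that it shares with the ING proteins, Taf3, Phf8 and Bptf, and it acts with beta-catenin in Wnt signalling. The data therefore bear on whether transcripts of the other parts of this machinery differed when 1 reader was lost.

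Values are log2 signals, so a difference of 1 is a doubling, and signals of different probe sets are not comparable with each other. Values are given in the order of the mouse numbers. The check of the labels, Pygo2, measured 8.65, 8.62, 8.72 (nDKO) and 7.30, 6.35 (nTKO), a difference of -1.84 (SE 0.30, limma adjusted p = 0.853). Smad4, targeted in both groups, measured 9.63 to 9.88 and 9.76 to 10.37, and where its probes lie relative to the floxed part was not examined. Epcam measured 12.94 to 13.48 on the 5 arrays. Fibroblast and endothelial markers had array medians of 4.31 to 4.46, and 1 of these 6 genes, Dcn, measured 6.41 to 9.52. Leukocyte markers had array medians of 6.87 to 8.33 in nDKO and 6.87 to 7.80 in nTKO cells, and proliferation markers 7.93 to 8.32 and 8.07 to 8.30, so both lists overlapped between the genotypes. Of the 9 leukocyte genes, 5 were highest in nTKO 1, among them S100a8 and S100a9 at 12.79 and 12.94 against 7.93 to 10.53 on the other arrays, while C1qa was lower in both nTKO mice (8.20, 7.64, 9.09 against 7.46, 7.27). Arrays nDKO 1 and nTKO 1, from the oldest mouse of each genotype, stood apart from the rest, with correlations of 0.987 to 0.991 with other arrays against 0.995 to 0.996 among the other three. Their squamous markers (8 of 8 measured) had medians of 10.85 and 9.15, against 5.52 to 6.14 on the remaining arrays. Of 6 genes of prostate and seminal vesicle secretion, 4 were measured. Their array medians were 5.16 to 8.99 in nDKO and 7.57 to 8.11 in nTKO cells. Svs2 was lowest in nDKO 1 (8.86 against 12.37 to 13.61), as was Svs6 (6.41 against 8.06 to 12.55). Pbsn was highest in nTKO 2 (8.15 against 3.33 to 5.43), where Svs6 measured 8.06.

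No transcript of the histone modifiers passed the test between the genotypes. In the limma fit over all genes, 0 of 37 members had an adjusted p under 0.05 (smallest 0.853), where 0 of 18193 genes (0%) had one. Each gene was represented by its brightest probe set. The member differences, nTKO minus nDKO, ran from -0.43 for Hdac1 to 0.41 for Hdac9, with a median of -0.0083 against 0.028 over all genes, and the median size without sign was 0.058 against 0.087. Of the members, 21 had a lower and 15 a higher nTKO mean, and Hdac8 had equal means. A lower nTKO mean was found for 38.3% of all genes. The scaling moved both shares, with 26 members and 51.3% of genes lower after quantile normalization and 27 members and 56.5% of genes after median centring.

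By the brightest probe set, and without age in the fit, the difference was bounded closely for most members. The 95% interval of the limma fit lay within 0.5 log2 units of 0 for 30 of 37 members, and for 67.6% of all genes. The 7 wider intervals belonged to Hdac1, Hdac2, Hdac3, Hdac9, Hdac11, Kdm5b and Kat2b, of which 5 are deacetylases. Among the 30 were Ing4 (4.49 to 4.73) and Hdac8 (5.07 to 5.13), with signals below the median gene level of 6.32. Other probe sets could be wider, as 1 of Kdm6b (-0.53, 95% interval -1.23 to 0.17) and 1 of Kat2a (-0.38, -0.97 to 0.20). The median spread between nDKO mice was an SD of 0.091 (n = 3) for the members and 0.10 for all genes. Fitted spreads are partly borrowed from other genes, and the deposited values are rounded and often tied, so that the nDKO SD of Rbbp5 was 0.

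**Figure D1:**
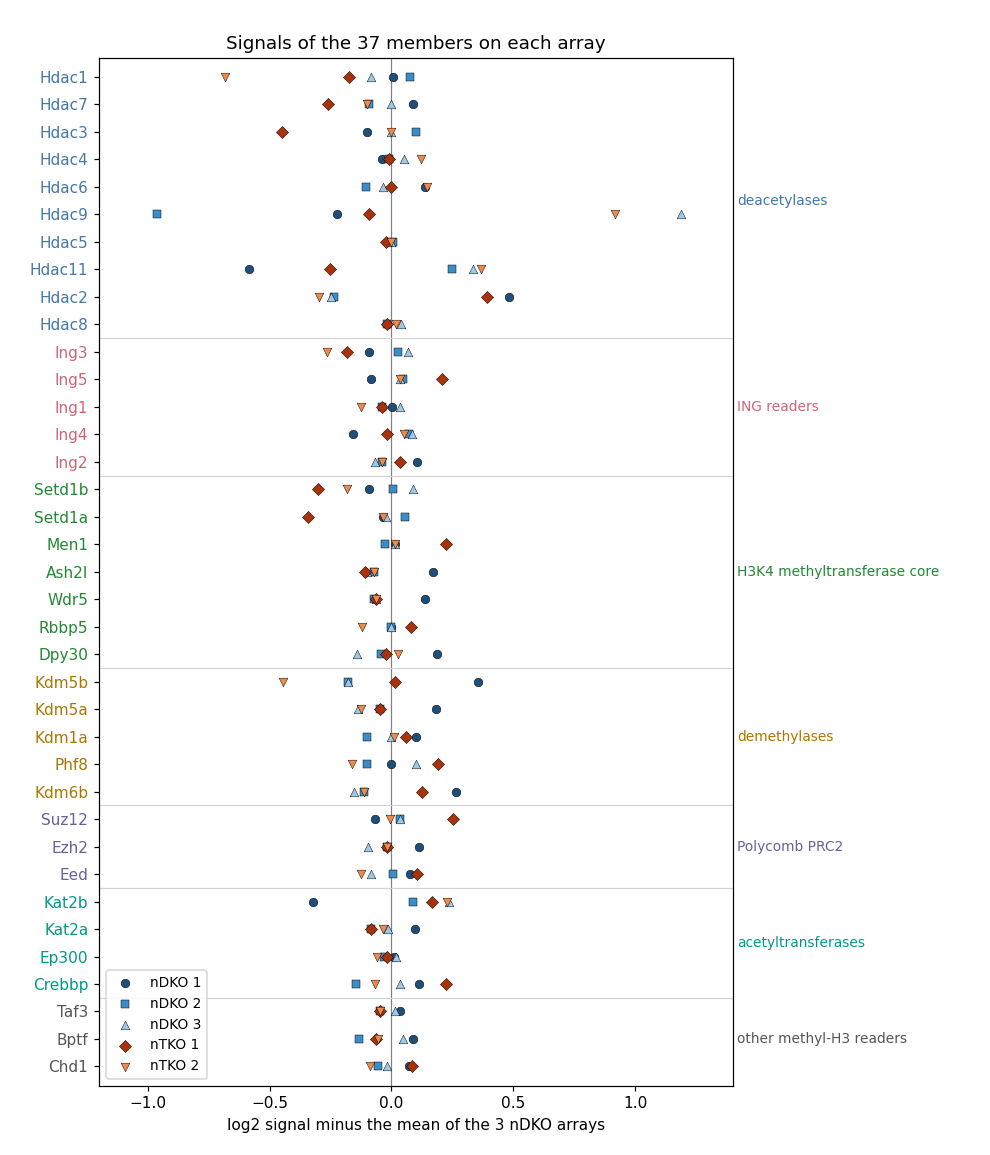
Log2 signal of each member's brightest probe set on each array, minus the mean of the 3 nDKO arrays, with genes in rows and 1 symbol per array. Most points lie close to 0, while Hdac2, Hdac11 and Hdac9 spread most within a genotype and Hdac1 is lowest in nTKO 2.

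**Figure D2:**
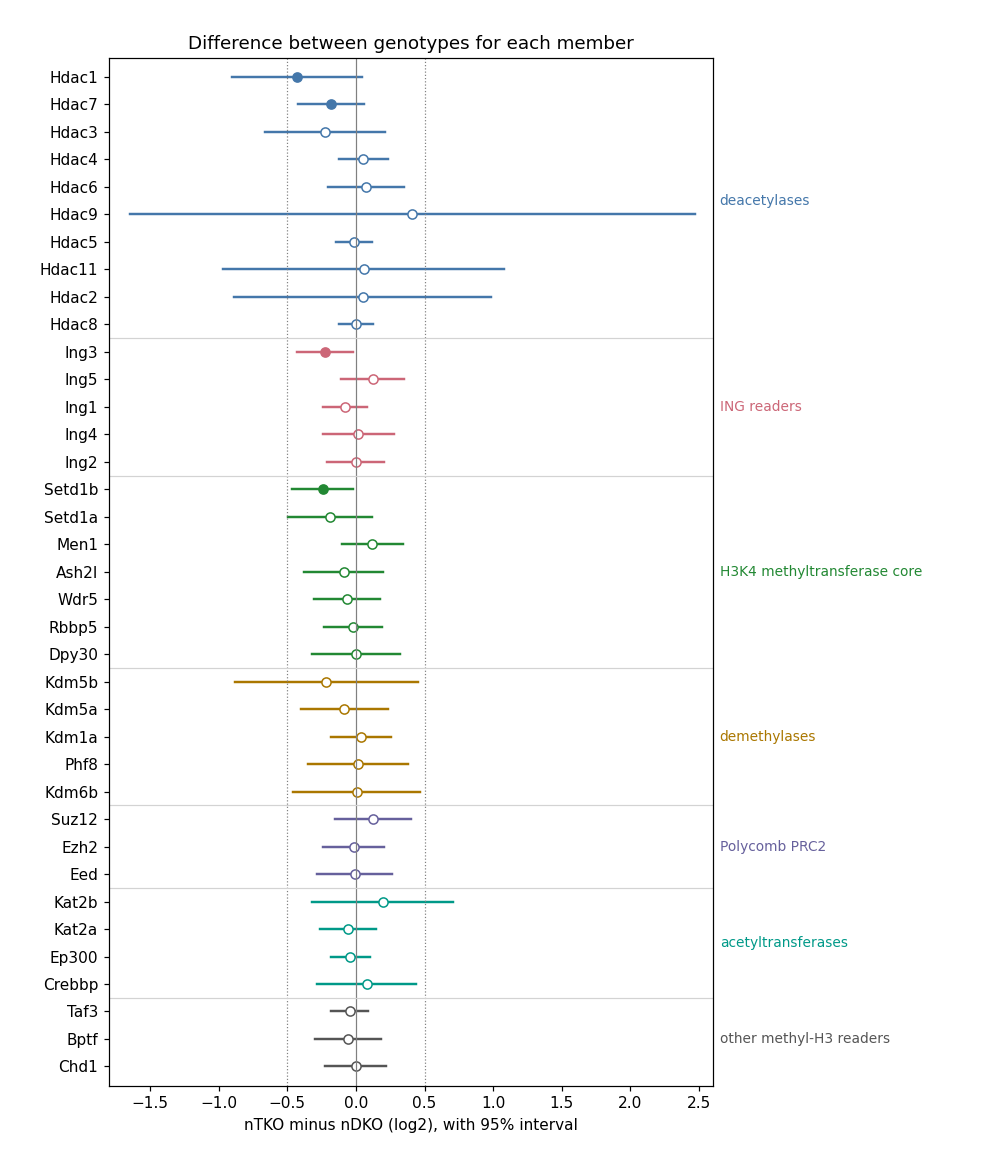
Difference between genotypes (nTKO minus nDKO, log2) for each member, with bars for the 95% interval of the limma fit and dotted lines at 0.5 on either side of 0. Filled points are the 4 members whose groups do not overlap, all lower in nTKO cells; 30 of the 37 bars stay between the dotted lines.

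Groups that do not overlap were found for 4 members, with both nTKO values under the lowest nDKO value: Hdac1, Hdac7, Ing3 and Setd1b. No member was higher in this sense. Over all genes, 4.71% were lower and 8.13% higher in this way. An unadjusted p under 0.05 was found for 2 members, Ing3 and Setd1b, both lower, where 1.33% of all genes were lower and 2.46% higher at that level. The count of 4 was 7 after either scaling, where 10.8% (quantile normalization) and 11.4% (median centring) of genes were lower without overlap, and 9 with the mean of all probe sets of a gene (6.02% of genes). It was also 9 without nDKO 2 (6.77% of genes), 8 without nTKO 2 (16.0%) and 12 without nTKO 1 (20.3%). The unadjusted count was 0 without nDKO 2 and without nDKO 3, where 442 and 545 of the 18193 genes had such a p. Which members it held also changed with the fit, as given below.

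Counted by mouse, members left the nDKO range as follows. In nTKO 1, 8 members were above the highest and 8 below the lowest nDKO value, and in nTKO 2 there were 3 above and 12 below. Among the deacetylases nTKO 1 had 0 members above and 4 below, and nTKO 2 had 3 above and 3 below. The part of the leukocyte genes that were high in nTKO 1 in these values was not tested. Over all 18193 genes, nTKO 1 was above for 6239 and below for 2913, and nTKO 2 above for 3690 and below for 3696.

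Of the 10 deacetylases, 5 had a higher and 4 a lower nTKO mean, with a median difference of 0.024 (-0.0095 after quantile normalization and -0.024 after median centring), and 0 passed. Among them, Hdac1 had the lowest nTKO mean relative to nDKO. Hdac1 is the catalytic subunit of the Sin3, NuRD and CoREST corepressor complexes, together with the closely related Hdac2. Its signal was 10.08, 10.15, 9.99 for nDKO and 9.90, 9.39 for nTKO. Both nTKO values lay below the nDKO range, nTKO 1 by little and nTKO 2 by more. The difference was -0.43 (SE 0.17, 95% interval -0.90 to 0.046, limma adjusted p = 0.853). Leaving out nTKO 2 gave -0.17 and leaving out nTKO 1 gave -0.68. Log2 age in the fit gave -0.75 (unadjusted p = 0.0234, limma adjusted p = 0.399). Of the secretory genes, Pbsn and Msmb were highest in nTKO 2, while Svs2 and Svs6 lay inside the nDKO range there. The part of the secretory genes in the low Hdac1 value of nTKO 2 was not tested. Hdac1 has 1 probe set, so no second measure is at hand.

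Hdac2 told the arrays apart but not the genotypes. Its signal was 10.30, 9.58, 9.57 among nDKO and 10.21, 9.52 among nTKO mice. Arrays nDKO 1 and nTKO 1 were high and the remaining arrays lay at 9.52 to 9.58. The difference between genotypes was 0.048 (SE 0.34, limma adjusted p = 0.991), with a 95% interval of -0.89 to 0.98. A second probe set gave 9.23, 8.40, 8.34 (nDKO) and 9.06, 8.23 (nTKO), with the same arrays high. The last Hdac2 probe set was dim, at 2.98 to 3.14. With log2 age as a covariate the Hdac2 difference was -0.73 (unadjusted p = 0.0239, limma adjusted p = 0.401), and without both nDKO 1 and nTKO 1 it was -0.055.

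Hdac11, the only deacetylase of class IV, ran the other way across the same arrays. It measured 7.39, 8.22, 8.31 for nDKO and 7.72, 8.34 for nTKO, so that nDKO 1 and nTKO 1 were low. Its second probe set gave 5.96, 6.97, 6.90 among nDKO and 6.45, 7.12 among nTKO mice, in the same order of arrays apart from nDKO 2 and nDKO 3. The difference between genotypes was 0.057 (95% interval -0.97 to 1.08). In these 2 arrays squamous keratins were high, with Krt10 at 13.03 and 13.04 against 6.71 to 6.93 elsewhere, Krt13 at 11.97 and 9.62 against 4.80 to 5.98, and Krt1 at 11.57 and 10.77 against 5.82 to 6.03. The basal keratins Krt5 and Krt14 were also highest there, Krt5 at 13.10 and 12.35 against 10.52 to 10.87. The part of the squamous cells, and of age, in the Hdac2 and Hdac11 values was not tested. In sorted cells measured in bulk, fewer cells of a type and less RNA per cell cannot be told apart.

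**Figure D3:**
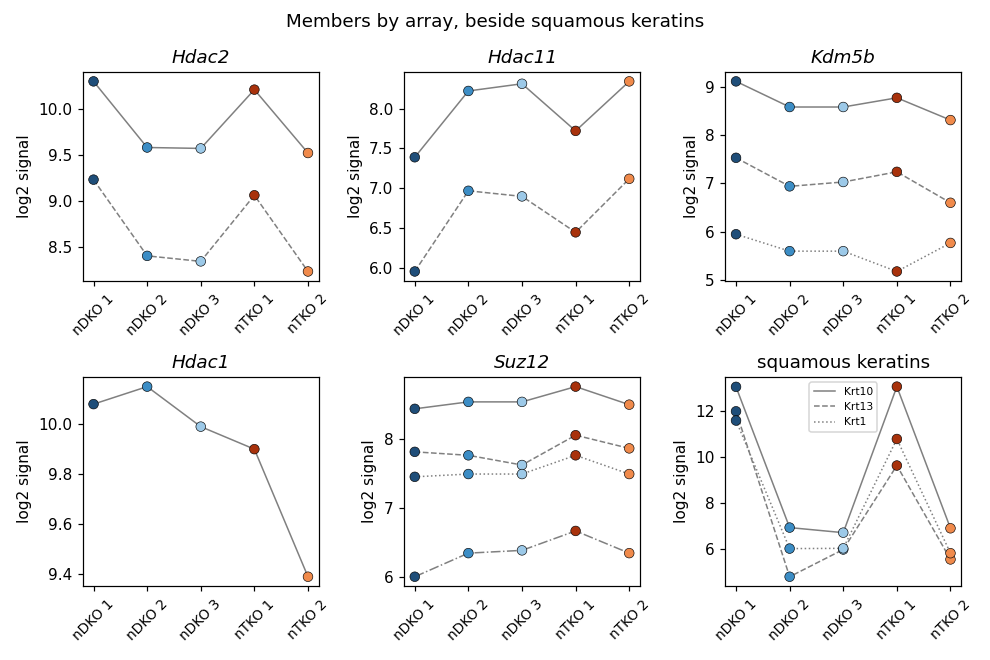
Log2 signal by array for the probe sets at or above the median level of all probe sets of Hdac2, Hdac11, Kdm5b, Hdac1 and Suz12, and for the squamous keratins Krt10, Krt13 and Krt1; lines join the values of 1 probe set and do not mean an order of the mice. Hdac2 is high and Hdac11 low on arrays nDKO 1 and nTKO 1, where the keratins are high, and Suz12 is highest in nTKO 1.

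The other deacetylases are known for distinct roles. Hdac7, a class IIa enzyme that acts largely as a scaffold for corepressors, measured 7.67, 7.49, 7.58 (nDKO) and 7.32, 7.48 (nTKO). The value of nTKO 2 was only just below the lowest nDKO value. The difference was -0.18 (SE 0.089, limma adjusted p = 0.853), and its size was smallest, at -0.055, with nDKO 1 and nTKO 1 both left out. The second Hdac7 probe set had a lower nTKO mean as well (-0.36), at 6.10, 6.47 and 6.43 against 5.79 and 6.15, but nTKO 2 lay inside the nDKO range.

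Hdac3, the catalytic subunit of the NCoR and SMRT complexes, was low in nTKO 1 alone, at 8.61 against 8.96 to 9.16 in nDKO cells and 9.06 in nTKO 2. Hdac9, another class IIa enzyme, varied most of all members, from 3.18 to 5.33 within nDKO cells, and its signals lay below the median gene level of 6.32. The other deacetylases varied less. Hdac5 (8.22 to 8.25) and Hdac8 (5.07 to 5.13) were flat over all arrays, and the tubulin deacetylase Hdac6 ranged from 7.90 to 8.15. Hdac4 ranged from 6.20 to 6.36 by its brightest probe set, with group means just under the median gene level. Another Hdac4 probe set measured 5.21 in every nDKO mouse and 5.06, 5.10 in nTKO mice, without overlap (-0.13, SE 0.039). The remaining Hdac4 probe set was tied at 5.43 on every array.

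The ING proteins pair a PHD finger that binds H3K4 trimethylation with membership of a deacetylase complex (Ing1 and Ing2) or of acetyltransferase complexes (Ing3, Ing4 and Ing5). Of the 5, 2 had a higher and 3 a lower nTKO mean, with a median of -0.0017, and 0 passed. Ing3, of the NuA4 complex, measured 7.69, 7.81, 7.85 for nDKO and 7.60, 7.52 for nTKO, without overlap. Its difference was -0.22 (SE 0.075, 95% interval -0.43 to -0.020, unadjusted p = 0.0375, limma adjusted p = 0.853). The other 3 Ing3 probe sets went the other way, at 0.07, 0.093 and 0.16, and the mean over all 4 gave 0.024, so the lower value rests on the brightest probe set alone. Ing5 was at 0.12 (SE 0.084, limma adjusted p = 0.853), with 7.71, 7.84, 7.83 among nDKO and 8.0, 7.83 among nTKO mice. Only nTKO 1 lay above the nDKO range. Ing1 (-0.082), Ing2 (-0.0017) and Ing4 (0.018) had 95% intervals within 0.28 of 0 by their brightest probe sets. The other Ing1 probe sets went the other way, at 0.027, 0.093 and 0.20. The last of these was dim, at 3.66, 3.79, 3.75 for nDKO and 3.88, 3.98 for nTKO, without overlap. Its 95% interval was 0.033 to 0.36 (unadjusted p = 0.0283, limma adjusted p = 0.799 in the fit over all probe sets).

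Promoter sequences are given for Ing3 and Hdac7, 2 of the 4 members that were lower in both nTKO mice, and for Hdac2 and Hdac11, deacetylases that differed between arrays on 2 probe sets in like order. They are the RefSeq windows of build GRCm38.p6, each 300 bases long, that begin upstream of the first transcript start listed and end just past it, written in the direction of the gene. Capitals mark the GC box GGGCGG, bound by Sp factors, and the CCAAT box, on either strand.
Ing3, chr6:21949321-21949620, plus strand: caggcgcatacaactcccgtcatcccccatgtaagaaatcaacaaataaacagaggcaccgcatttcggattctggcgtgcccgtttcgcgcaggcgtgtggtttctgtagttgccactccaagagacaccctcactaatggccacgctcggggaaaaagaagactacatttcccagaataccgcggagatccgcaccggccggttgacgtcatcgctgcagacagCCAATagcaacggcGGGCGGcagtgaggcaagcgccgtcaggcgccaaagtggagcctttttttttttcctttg
Hdac7, chr15:97831446-97831745, minus strand: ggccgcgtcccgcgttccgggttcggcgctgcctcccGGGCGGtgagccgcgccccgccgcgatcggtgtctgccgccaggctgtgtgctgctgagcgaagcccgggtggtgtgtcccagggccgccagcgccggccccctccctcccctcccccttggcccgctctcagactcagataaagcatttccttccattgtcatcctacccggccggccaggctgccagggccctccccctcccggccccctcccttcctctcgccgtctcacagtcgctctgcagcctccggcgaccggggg
Hdac2, chr10:36974294-36974593, plus strand: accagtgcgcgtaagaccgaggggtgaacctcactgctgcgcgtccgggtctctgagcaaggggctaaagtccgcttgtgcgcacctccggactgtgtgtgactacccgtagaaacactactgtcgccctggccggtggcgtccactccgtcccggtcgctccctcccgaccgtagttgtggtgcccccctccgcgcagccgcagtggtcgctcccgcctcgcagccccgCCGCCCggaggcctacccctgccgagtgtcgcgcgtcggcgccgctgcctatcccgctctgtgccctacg
Hdac11, chr6:91156565-91156864, plus strand: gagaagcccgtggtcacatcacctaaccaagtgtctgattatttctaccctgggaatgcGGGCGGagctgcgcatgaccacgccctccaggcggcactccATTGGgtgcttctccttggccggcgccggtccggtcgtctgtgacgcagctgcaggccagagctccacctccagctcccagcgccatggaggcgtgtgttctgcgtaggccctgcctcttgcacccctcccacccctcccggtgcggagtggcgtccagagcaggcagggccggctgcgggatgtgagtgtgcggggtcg
Each of the 4 windows held 1 GC box, and the Ing3 and Hdac11 windows 1 CCAAT box each. Windows were found for 30 members. CTTTGA is the core that TCF and LEF factors bind in Wnt targets. Its letters were, on either strand, in the windows of 2 of 30 members, Kat2b and Suz12. They were in 16.2% of the 27025 windows of all genes of the promoter reference. That set is not the 18193 genes measured here, and it was not matched to the members in CpG count or signal. The GC box was in 20 of 30 (35.9% of all) and the CCAAT box in 16 of 30 (37.9% of all). The median count of CpG pairs was 23 in members and 7 in all windows. A match of letters is a description and not a binding site.

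The H3K4 methyltransferase core had 5 members lower and 2 higher, with a median difference of -0.063, and 0 of 7 passed over all genes. Setd1b and Setd1a are the catalytic subunits of the SET1 complexes, which place H3K4 trimethylation at promoters. Setd1b measured 8.11, 8.21, 8.29 (nDKO) and 7.90, 8.02 (nTKO), without overlap. Its difference was -0.24 (SE 0.083, 95% interval -0.47 to -0.018, unadjusted p = 0.0397, limma adjusted p = 0.853). Adding log2 age to the fit gave -0.10, and nTKO 2 minus nDKO 1, the mice closest in age across genotypes, gave -0.09. The second Setd1b probe set gave 7.58, 7.53, 7.65 for nDKO and 7.58, 7.52 for nTKO, a difference of -0.037 with groups that overlapped. The probe sets thus differ in the size of the difference.

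Setd1a was low in 1 nTKO mouse alone. Its signals were 7.60, 7.69, 7.61 for nDKO and 7.29, 7.60 for nTKO mice, a difference of -0.19 (SE 0.11, limma adjusted p = 0.853) that was -0.033 without nTKO 1 and 0.028 with log2 age in the fit. Its dim second probe set was also lowest in nTKO 1, at 3.53 against 3.87 to 4.01.

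The shared scaffold of these complexes gave differences near 0 by the brightest probe sets. Wdr5, the WD40 protein that holds the complexes together, measured 8.64, 8.43, 8.44 among nDKO and 8.44, 8.44 among nTKO mice, a difference of -0.063 (95% interval -0.30 to 0.18). Its second probe set, at 6.97, 6.96, 6.78 (nDKO) and 6.48, 6.70 (nTKO), did not overlap between groups, with a difference of -0.31 (SE 0.11, unadjusted p = 0.0400 and limma adjusted p = 0.799 in the fit over all probe sets). The groups overlapped on the brighter probe set. Ash2l (-0.09), Rbbp5 (-0.02) and Dpy30 (0.0017), the other core subunits, had intervals within 0.38 of 0. Men1, menin, a subunit of MLL complexes, was at 0.12, from a higher value in nTKO 1 (7.37 against 7.12 to 7.16 on the other arrays).

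Of the demethylases, 2 were lower and 3 higher with a median of 0.0067 (all 5 lower after median centring), and 0 passed. Kdm5b, which removes H3K4 trimethylation, measured 9.11, 8.58, 8.58 for nDKO and 8.77, 8.31 for nTKO. It was highest in nDKO 1 and lowest in nTKO 2, with overlap. The difference was -0.22 (SE 0.25, 95% interval -0.88 to 0.45, limma adjusted p = 0.875). With log2 age in the fit it was -0.76 (unadjusted p = 0.0130, limma adjusted p = 0.367). Without nTKO 2 it was 0.013, and nTKO 2 minus nDKO 1 gave -0.80. Its second probe set had the same highest and lowest arrays, at 7.53 and 6.60. Another Kdm5b probe set was highest in nDKO 1 too, at 5.95, but lowest in nTKO 1, at 5.18. There nTKO 2, at 5.77, lay above nDKO 2 and nDKO 3, both at 5.60. The dimmest Kdm5b probe set measured 3.47 to 3.51. The low nTKO 2 value was thus not seen on every Kdm5b probe set.

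The related Kdm5a measured 8.34, 8.11, 8.02 among nDKO and 8.11, 8.03 among nTKO mice, a difference of -0.087 (95% interval -0.40 to 0.23). It was 0.005 without nDKO 1, the array with its highest value. Kdm1a, LSD1, which removes mono- and dimethylation and works with CoREST, was bounded closely, at 0.035 (95% interval -0.18 to 0.25), and its second probe set gave 0.0033. Phf8, a PHD-finger demethylase of lysine 9, was at 0.015 (-0.35 to 0.38). Kdm6b, JMJD3, which removes the PRC2 mark, was higher on arrays nDKO 1 (8.17) and nTKO 1 (8.03) than on the others (7.75 to 7.79) by its brightest probe set. A second Kdm6b probe set ran against this, at 6.59 in nTKO 1 and 7.34 to 7.58 on the other arrays, so the Kdm6b probe sets do not give 1 pattern.

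PRC2 members gave 1 higher and 2 lower means, with a median of -0.0083. Ezh2, its methyltransferase, whose level often follows cell division, measured 8.21, 8.08, 8.0 (nDKO) and 8.08, 8.08 (nTKO). Both nTKO mice lay inside the nDKO range, and the difference was -0.017 (SE 0.082, 95% interval -0.24 to 0.21, limma adjusted p = 0.979). The array medians of the proliferation markers, 11 of 12 listed genes measured, also overlapped, while 1 of them, Mcm3, was higher in both nTKO mice without overlap (7.42, 7.26, 7.04 against 7.48, 7.52). Eed, which binds the mark PRC2 places, was at -0.0083 (-0.28 to 0.26).

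Suz12, the subunit that holds PRC2 together, was highest in nTKO 1. It measured 8.43, 8.53, 8.53 for nDKO and 8.75, 8.49 for nTKO, a difference of 0.12 (SE 0.10, limma adjusted p = 0.853) that was -0.0067 once nTKO 1 was left out and -0.04 once nDKO 1 was left out with it. On each of its 6 probe sets nTKO 1 was the highest array, and on 5 of them the difference was positive, from 0.12 to 0.26. These probe sets report 1 gene in the same 5 samples and are not separate observations. Groups did not overlap on 2 of the 6, both higher, where 7.02% of all probe sets were higher in this way. Of these 2, 1 was dim, at 3.89, 3.55, 3.89 for nDKO and 4.14, 3.90 for nTKO.

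The acetyltransferases had 2 members higher and 2 lower, with a median of 0.019 (-0.029 after median centring), and 0 passed. Kat2b, PCAF, measured 10.12, 10.53, 10.68 among nDKO and 10.61, 10.67 among nTKO mice, with nDKO 1 lowest. Its difference was 0.20 (SE 0.19, 95% interval -0.32 to 0.71, limma adjusted p = 0.859) and 0.035 without nDKO 1. The second probe set was lowest in nDKO 1 too, at 6.45 against 7.15 to 7.39. Kat2a, GCN5, measured 8.19, 8.01, 8.08 (nDKO) and 8.01, 8.06 (nTKO), a difference of -0.058 (95% interval -0.26 to 0.15). A second probe set was lowest in nTKO 1, at 6.47 against 7.08 to 7.31 on the other arrays. The dimmest gave 5.20, 4.82, 4.88 for nDKO and 4.71, 4.72 for nTKO, without overlap. Ep300 and Crebbp, the paired coactivators p300 and CBP, which beta-catenin also recruits, were at -0.04 (-0.18 to 0.10) and 0.078 (-0.28 to 0.44). Ep300 was among the steadiest members, with 9.10 to 9.18 over all arrays.

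The other readers of methylated H3 were at or just below 0 by their brightest probe sets. Taf3, the TFIID subunit whose PHD finger binds H3K4 trimethylation, measured 5.48, 5.40, 5.46 among nDKO and 5.40, 5.40 among nTKO mice, a difference of -0.047 (95% interval -0.18 to 0.086) at a signal below the median gene level. Chd1, a remodeller with chromodomains that bind the same mark, was at -0.0017 (-0.22 to 0.22). Its other probe sets gave -0.03, -0.215 and -0.145, with groups that overlapped. Bptf, the reader subunit of the NURF remodeller, measured 9.72, 9.50, 9.68 (nDKO) and 9.57, 9.58 (nTKO) by its brightest probe set, a difference of -0.058 (95% interval -0.30 to 0.18). All 4 Bptf probe sets had lower nTKO means. The second measured 8.67, 8.70, 8.87 for nDKO and 8.38, 8.57 for nTKO, a difference of -0.27 (SE 0.10). The dimmest measured 4.45, 4.44 and 4.32 against 3.94 and 4.18, a difference of -0.34 (SE 0.094). On both the groups did not overlap. Their unadjusted p was 0.0546 and 0.0201, with limma adjusted p = 0.799 for both in the fit over all probe sets. The mean over the Bptf probe sets gave -0.19.

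**Figure D4:**
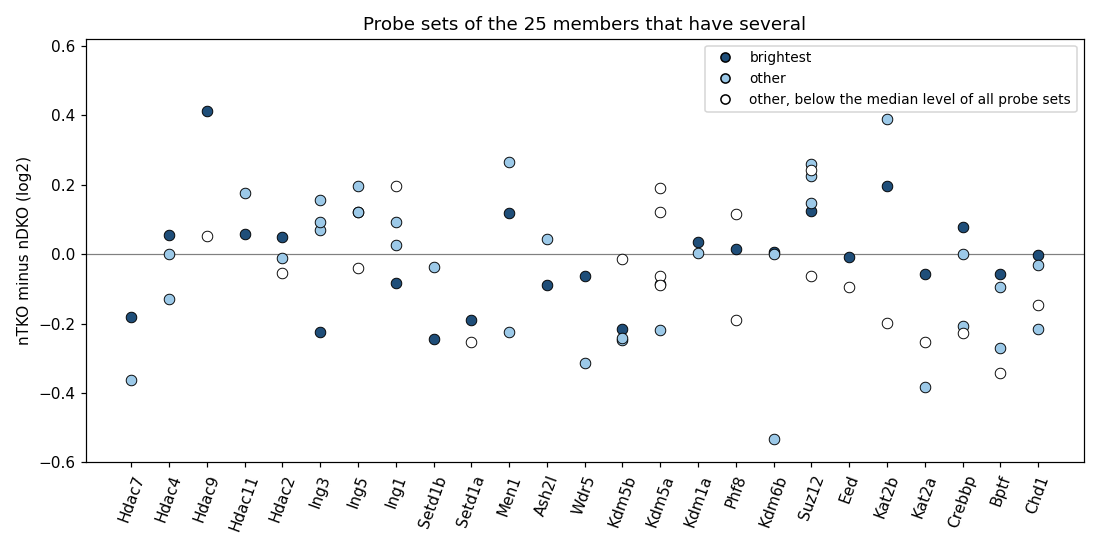
Difference between genotypes (nTKO minus nDKO, log2) for every probe set of the 25 members that have more than 1, with the brightest probe set of a gene dark, others pale, and others below the median level of all probe sets white. The probe sets of 12 genes lie on 1 side of 0, as those of Hdac7 and Bptf, while those of Ing3 lie on both sides.

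Agreement between probe sets was limited for small differences. Of the 25 members with several probe sets, 12 had the same sign on all of them. Of all 91 member probe sets, 51 were lower and 37 higher in nTKO cells, and 3 had equal means. Groups did not overlap for 9 that were lower and 3 that were higher, where 5.17% of the 45037 probe sets on the array were lower and 7.02% higher. In the limma fit over all probe sets 0 had an adjusted p under 0.05 (smallest 0.799).

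Of a wider list of 81 chromatin genes, 77 were measured, 40 with a higher and 37 with a lower nTKO mean, with a median of 0.0067. Of these genes, 0 had an adjusted p under 0.05 and 0 an unadjusted one, and the groups did not overlap for 6 that were higher and 5 that were lower, against 8.13% and 4.71% of all genes. Partners of the deacetylases and sirtuins had 11 of 17 lower (median -0.042), with Mta1, a NuRD subunit, at -0.30 (7.89 to 7.91 among nDKO mice, 7.39 and 7.81 among nTKO mice), and Tbl1x, an NCoR subunit, at 0.12. The MLL methyltransferases and other genes listed for H3K4 methylation had 5 of 9 lower (8 of 9 after median centring). Kmt2d was at -0.15 and Paxip1 at 0.098. Other demethylases had 7 of 12 higher (2 of 12 after median centring), with Kdm5c at 0.093 and Kdm7a at -0.11.

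Partners in PRC1 and PRC2 had 11 of 15 higher, with a median of 0.11, and 11 of 15 under both scalings. Of all genes, 60.0% were higher, 48.6% after quantile normalization and 43.0% after median centring. Cbx2 (0.19) and Cbx8 (0.12), chromodomain subunits of PRC1, had the smallest p of that list. Other acetyltransferases and coactivators had 7 of 13 higher (6 of 13 after median centring), among them the coactivator Ncoa1 at 7.49, 7.73, 7.89 among nDKO and 8.07, 8.04 among nTKO mice (0.35, SE 0.14, limma adjusted p = 0.853) and Hat1 (0.20). Other readers had 5 of 11 higher (2 of 11 under either scaling), with Spin1, a Tudor-domain reader of H3K4 trimethylation that also takes part in Wnt signalling, at 0.15 and the lysine 9 reader Cbx5 at -0.13. Pygo1, the paralog of Pygo2, measured 3.14, 3.16, 3.16 (nDKO) and 3.16, 3.16 (nTKO), near the lowest signals of the array. At that level nothing can be read from it about a difference.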

How the data were processed

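RNA of EpCAM-isolated prostate tumour cells from 3 nDKO and 2 nTKO mice was hybridised to 5 single-channel Affymetrix arrays. The authors deposited a log2 value for every probe set on each array, for which the submitters' processing notes name the Transcriptome Analysis Console and RMA. Their versions are not given in the sources used here. Array medians of the deposited values were 4.94 to 4.98. RMA commonly equalizes arrays, so a shift shared by most genes may not be seen. The small number of arrays limits the precision.

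Of 45037 probe sets, 34945 had 1 gene symbol, 932 several and 9160 none in the platform annotation. Each of 18193 genes was represented by the brightest probe set with 1 symbol. A limma 3.58.1 model in R 4.3.3 compared the genotypes (lmFit, eBayes with an intensity trend, two-sided, Benjamini-Hochberg over all genes, threshold 0.05), without filter or covariate, and again over all probe sets. The fit was tested on simulated data with independent normal noise. Those data hold no squamous difference between arrays, no age effect and no tied values, so they cannot show how the fit performs here. Fully described were the 2 members of each group with the smallest p, members without overlap, and Hdac1, Ezh2, Kdm5b and Wdr5. Hdac2, Hdac3, Hdac11, Kdm6b, Men1, Pygo1 and the single marker genes were described after their values were seen. Alternatives tried were quantile normalization, median centring, only genes at or above the median level, eBayes without trend or robust, array weights, age on the log2 scale in the fit, a block for the replicate number, averaged probe sets, and each mouse left out in turn. Dropping both nDKO 1 and nTKO 1, and setting nTKO 2 against nDKO 1, were chosen after seeing the data. The members and lists were chosen with earlier results of these data known. A few listed genes were not analysed here. Some items are left out of this text.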

Additional observations from a re-analysis of the deposited data

How the results depend on the processing

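The count of genes with a limma adjusted p under 0.05 was 0 in every alternative run, with 401 to 2996 genes at an unadjusted p under 0.05. For the 15 fully described members, 211 of 224 values over 15 alternatives kept their direction and 0 passed the adjusted threshold (limma adjusted p from 0.16 to 1). The median-level filter, the fit without trend and the robust fit leave each difference as it was, so those directions were fixed. Averaging probe sets likewise leaves Hdac1, Ezh2 and Taf3, with 1 probe set each, as they were. Without both nDKO 1 and nTKO 1, 5 of the 15 changed sign. The members with a lower mean numbered 18 to 28, from 21. Members lower without overlap, 4, numbered 7 after quantile normalization and 7 after median centring, 9 with the mean of the probe sets of a gene (6.02% of all genes), 15 without both nDKO 1 and nTKO 1 (28.8%), and 4 to 12 with 1 mouse left out (6.54% to 20.3%). The median difference of the members, -0.0083, was -0.057 after median centring, -0.10 with log2 age as a covariate, and -0.047 to 0.005 with 1 mouse left out. The replicate numbers are not a pairing in the labels, and deviations of same-numbered mice correlated at 0.42 and 0.34 across genes in only 2 pairs. With the replicate block, where nDKO 3 has no partner and adds nothing, the median was -0.035. There 1 member, Kdm5b, had an unadjusted p under 0.05, where the main fit had 2, Ing3 and Setd1b. Of all genes 917 had one, from 689. With log2 age as a covariate the members were again others, 3 in number: Hdac1, Hdac2 and Kdm5b. Of all genes 1901 had such a p there. With 1 nDKO mouse left out, 0 to 2 members had such a p, where 442 to 870 of all genes had one.

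Values that changed sign were those of Ing3 with the mean of its probe sets (0.024), Setd1a with log2 age (0.028), and Ezh2 with array weights (0.021). With 1 mouse left out, Ezh2 ran from -0.065 to 0.04, Kdm5a from -0.16 to 0.005 and Wdr5 from -0.10 to 0.005, each above 0 without nDKO 1. Suz12 ran from -0.0067 (without nTKO 1) to 0.25, and Kdm5b from -0.45 to 0.013 (without nTKO 2). Without both nDKO 1 and nTKO 1, Ezh2 was 0.04, Ing5 -0.005, Suz12 -0.04, Kat2a 0.015 and Wdr5 0.005. Hdac2 was 0 after median centring, -0.73 with log2 age, -0.075 with the replicate block, -0.0056 with the mean of its probe sets, -0.055 without both, and -0.30 to 0.39 with 1 mouse left out. Kdm6b was -0.013 after quantile normalization, -0.042 after median centring, -0.33 with log2 age, -0.07 with the block, -0.18 with the mean of its probe sets, and -0.11 to 0.14 with 1 mouse left out. Hdac11 was -0.16 with array weights and -0.25 to 0.37 with 1 mouse left out, where Hdac9 ran from -0.093 to 1.005. The cause was not tested. Leaving out an nTKO mouse leaves 1, which is assumed to vary like the others. Dim probe sets, 22 of the 91, limit what can be seen of Hdac9 and Ing4.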

Other observations

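Probe sets that the annotation assigns to a member and a second gene were not counted as members. One shared by Ing4 and Acrbp, a sperm acrosome gene, measured 8.89, 8.72, 8.61 for nDKO and 8.11, 8.47 for nTKO, without overlap (difference -0.45, SE 0.15, unadjusted p = 0.0394 and limma adjusted p = 0.799 over all probe sets). The single-symbol Ing4 probe set is dim, at 4.49 to 4.73, and overlapped between groups. Which of the 2 genes the shared probe set reports is not known here.

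One shared by Kdm6b and 1700064E03Rik measured 5.99, 6.15, 5.96 among nDKO and 5.53, 5.90 among nTKO mice (difference -0.32, SE 0.14), again without overlap. It was lowest in nTKO 1, as was the second Kdm6b probe set.

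Among the arrays, nDKO 1 had the highest value for 14 of 37 members, ties left out, where it was highest for 17.9% of all genes. nTKO 1 was highest for 8 members and for 30.8% of all genes, and nTKO 2 was lowest for 10 members and for 17.5% of all genes.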
